A study of Mus musculus with 9 samples.

Results

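FOXO factors and a set of their target and quiescence genes were followed through the deposited transcript table: Foxo1, Foxo3, Ccng2, Txnip, Irs2, Pik3ip1, Sesn1, Sesn3, Bcl6 and Gas1. The 10 genes were chosen by symbol, out of 23205 symbols in the table, and all 10 were found, on 12 of its 30273 transcript lines. The choice was made with earlier results of these data known. The study used NIH3T3, an immortalised mouse fibroblast line, carrying the transgenes Phy-mCherry-CAAX and YFP-PIF-SOS2cat. Together these form OptoSOS, a light switch that brings the catalytic part of a Ras activator to the membrane. By the labels, all 9 samples were held overnight in DMEM with 20 mM HEPES and no serum and were given 10 µM phycocyanobilin, the light-sensing cofactor of the switch, so the untreated cells carried the transgenes and the cofactor too. There were 3 untreated samples at 0 min, 1 sample each at 30, 60 and 120 min of PDGF at 100 ng/mL, and 1 sample each at 30, 60 and 120 min of constant red light. The labels state neither the promoters that drive the transgenes nor whether the line is 1 clone.

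The table has 12 columns of values, 3 more than there are samples, and they carry running numbers that no sample label gives. No column was therefore assigned to an untreated, PDGF or light sample. The number is only a name, and what follows describes level, spread and co-variation over unnamed columns, with no comparison of treatments. Values are FPKM, fragments scaled by transcript length and by the total of mapped fragments, summed over the lines of a symbol. Because the unit is per length, levels can be set side by side between genes. In RNA from whole cultures, fewer cells of a kind and less RNA per cell cannot be told apart.

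FOXO proteins are transcription factors that sit at the end of the insulin and growth factor pathway through PI3K and AKT. When AKT is active it phosphorylates them, and they are held out of the nucleus. When growth factor is withdrawn they enter the nucleus and raise genes that slow the cell cycle, restrain growth signalling and limit nutrient use. Serum-starved NIH3T3 cells are a classical model of this resting state, and Gas1 takes its name from growth arrest in such cells.

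No pair of columns held identical values. Over 10390 symbols with a median of at least 1 FPKM, the correlation of log2(FPKM + 1) between columns ran from 0.918 to 0.984. The ratio of deposited coverage to FPKM, which follows the depth of a column, was lowest in column 1 and 3.25 times as high in column 8. Column 1 also had the highest summed FPKM, 545360 against 382402 to 459813 in the others. The count of gene pairs is given with and without column 1, and the share over all pairs without it was added after seeing the data. Some single pairs are described in the text over all 12 columns only. Of 10 fibroblast markers, 9 had a median of at least 1 FPKM, with a sum over the markers of 3965 to 5466 FPKM; Vim had the highest median, 2497 FPKM, and Lum the lowest, with no value above 0.242 FPKM. Pdgfrb, which encodes a PDGF receptor, had the widest range, 11.3 to 38.5 FPKM, and Col1a1 ran from 67.3 to 138 FPKM. In all, 2 of the 9 had a log2(FPKM + 1) range of at least 1, where 20.9% of all symbols tested did. Of 12 markers of other cell types, 10 stayed under 1 FPKM in every column, Epcam, Emr1 and Myod1 were listed at 0 in all 12, and the sum over the markers was 7.83 to 13.7 FPKM. The other 2, Tubb3 and Cd68, had medians of 7.94 and 1.99 FPKM and ranges under 1, and Cdh1 did not exceed 0.869 FPKM.

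Upstream sequence was examined for all 10 genes in RefSeq promoter windows of GRCm38.p6, each from 250 bases before to 50 bases after a start site. The authors' build was mm9, so these coordinates are not those of the deposited table. The FOXO core GTAAACA was searched on both strands and occurred in 2 of the 12 windows of the members, those of Txnip and of 1 of the 2 Sesn1 starts. Over all 32851 windows, 3.65% held it. The insulin response element CAAAACAA, also on both strands and not overlapping the first motif in any member, was found in the windows of Ccng2 and Irs2. It lay 16 and 38 bases before the RefSeq start used. By the GENCODE M21 annotation, Ccng2 starts 316 bases upstream of that start, so its match lies after the GENCODE start. Irs2 starts 471 bases downstream of the RefSeq start by GENCODE. The element was present in 2.51% of all windows. A match describes letters only, and its absence from a window says nothing on binding. The stretches below are those of Txnip, the member with the widest range, and of the 2 starts of Sesn1, whose transcripts did not follow each other closely. Capitals mark the FOXO core. The first is the sequence before the Txnip start (chr3:96557707-96557956, plus strand), in which the match begins 121 bases before the start. The second is the sequence before the downstream Sesn1 start (chr10:41887189-41887438, plus strand), which holds no match. The third is a window of 30 bases around the match at the upstream Sesn1 start (chr10:41810585-41810614, plus strand), which begins at base 23 after that start.
Txnip: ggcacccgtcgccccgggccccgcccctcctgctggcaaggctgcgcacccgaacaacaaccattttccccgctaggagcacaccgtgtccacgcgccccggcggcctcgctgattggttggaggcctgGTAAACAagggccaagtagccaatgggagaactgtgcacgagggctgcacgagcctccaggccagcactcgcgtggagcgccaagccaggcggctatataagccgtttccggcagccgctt
Sesn1 downstream start: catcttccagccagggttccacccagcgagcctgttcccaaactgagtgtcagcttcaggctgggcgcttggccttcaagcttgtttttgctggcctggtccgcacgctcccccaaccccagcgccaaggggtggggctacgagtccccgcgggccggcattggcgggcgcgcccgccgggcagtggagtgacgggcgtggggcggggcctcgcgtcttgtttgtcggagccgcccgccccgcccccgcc
Sesn1 upstream start: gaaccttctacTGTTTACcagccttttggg

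Ordered by median level, the genes ran from Gas1 at 61.8 FPKM through Ccng2 at 34.4, Txnip at 27.5, Sesn1 at 14.7, Sesn3 at 14.2, Bcl6 at 13.03, Pik3ip1 at 9.60, Foxo3 at 6.63 and Irs2 at 5.54 to Foxo1 at 2.27. The median over all symbols tested was 10.8 FPKM. Every pair of neighbours in this order had overlapping ranges over the columns. Gas1 was nevertheless above Ccng2, and Irs2 above Foxo1, in all 12 columns, whereas Sesn1 was above Sesn3 in only 5. Sesn1 and Sesn3 thus had nearly the same median with a different pattern.

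**Figure D1:**
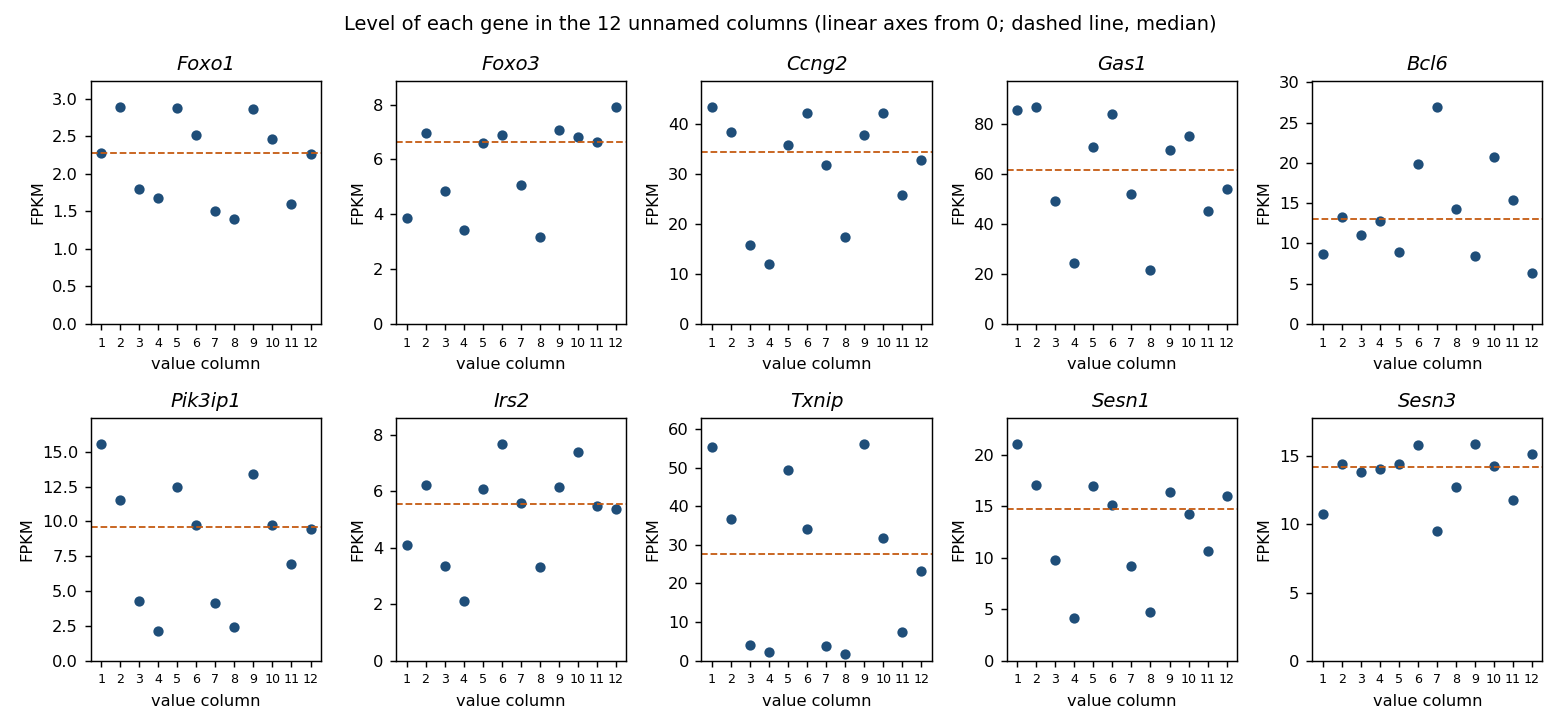
FPKM of each of the 10 genes (y axis, linear and from 0) in each of the 12 unnamed value columns (x axis); each point is 1 column and the dashed line is the gene's median. Txnip spans 1.68 to 56.2 FPKM, whereas Sesn3 stays between 9.52 and 15.9 FPKM.

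The factors themselves were at low and moderate levels. Foxo1, a FOXO factor that governs metabolic and cell cycle genes, had a lowest value of 1.40 FPKM in column 8, a median of 2.27 and a highest value of 2.89 in column 2. The deposited intervals of these extremes, 1.24 to 1.55 and 2.61 to 3.17 FPKM, did not overlap. Columns 3, 4, 7, 8 and 11 held its 5 lowest values, at or under 1.80 FPKM, and no other column was under 2.27.

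Foxo3, the FOXO factor known for roles in stress resistance and cell survival, was at 3.17 FPKM at its lowest, 6.63 at the median and 7.91 at its highest. It was low in column 8 and in column 4, at 3.41 FPKM, as most of the other genes were. It was also low in column 1, at 3.85 FPKM, where Txnip, Pik3ip1, Sesn1 and Gas1 were high. Column 1 was the shallowest, and the part of depth in this value was not tested. Foxo4, the related factor outside the set, had a median of 9.67 FPKM (7.19 to 12.6) and was thus the most abundant of the family. Foxo6 did not exceed 0.011 FPKM in any column.

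Pik3ip1 and Irs2 act on the pathway above FOXO. Pik3ip1 encodes a membrane protein that restrains the catalytic subunit of PI3K. Its level was 2.15 FPKM in column 4 and 2.44 in column 8, with a median of 9.60 and a highest value of 15.6 in column 1. The ratio of highest to lowest was 7.25, the second widest of the set. Irs2, an adaptor between insulin and IGF receptors and PI3K, was at 2.10 FPKM in column 4, 5.54 at the median and 7.68 in column 6. Irs2 was highest in columns 6 and 10, whereas Pik3ip1 was highest in columns 1 and 9.

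Txnip had the widest range of the 10 genes. It encodes an arrestin-like protein that binds thioredoxin and restrains glucose uptake. Its level in columns 1 to 12 was 55.3, 36.6, 4.05, 2.19, 49.3, 34.1, 3.77, 1.68, 56.2, 31.9, 7.38 and 23.2 FPKM. The values fell into a low part of 5 columns (3, 4, 7, 8 and 11) at or under 7.38 FPKM and a high part of 7 columns at or over 23.2 FPKM, with none between. The highest value was 33.4 times the lowest. On the log2(FPKM + 1) scale this was a range of 4.41, and 95 of the 10390 symbols tested, Txnip included, had one at least as wide.

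The sestrins, stress-induced proteins that restrain mTORC1, differed from each other. Sesn1 ran from 4.15 FPKM in column 4 and 4.74 in column 8, through a median of 14.7, to 21.1 in column 1. Sesn3 ran only from 9.52 FPKM in column 7, through a median of 14.2, to 15.9 in column 9. In columns 4 and 8, where Sesn1 was lowest, Sesn3 was at 14.1 and 12.8 FPKM. Sesn2, the third sestrin and not part of the set, was at 3.59 FPKM in column 8, 6.41 at the median and 19.4 in column 3, a column in which Sesn1 was below its own median.

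Ccng2, Gas1 and Bcl6 are linked to leaving the cell cycle. Ccng2 encodes an unconventional cyclin that is associated with cell cycle arrest, and its level was 11.9 FPKM in column 4, 34.4 at the median and 43.4 in column 1. It was low in columns 3, 4 and 8, at or under 17.4 FPKM, and at or over 25.8 in the other 9. Gas1 encodes a membrane protein that blocks entry into S phase, and it was the most abundant of the set. It was at 21.4 FPKM in column 8 and 24.5 in column 4, 61.8 at the median and 86.9 in column 2. The next value above column 4 was 45.1 FPKM, so these 2 columns stood below the other 10.

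Bcl6, a zinc finger repressor of transcription, did not share this pattern. Its level in columns 1 to 12 was 8.73, 13.3, 11.1, 12.8, 8.97, 19.9, 26.9, 14.2, 8.39, 20.7, 15.4 and 6.34 FPKM. It was highest in column 7, where Txnip and Pik3ip1 were low, and lowest in column 12. In columns 4 and 8 it was close to its median of 13.03 FPKM.

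**Figure D2:**
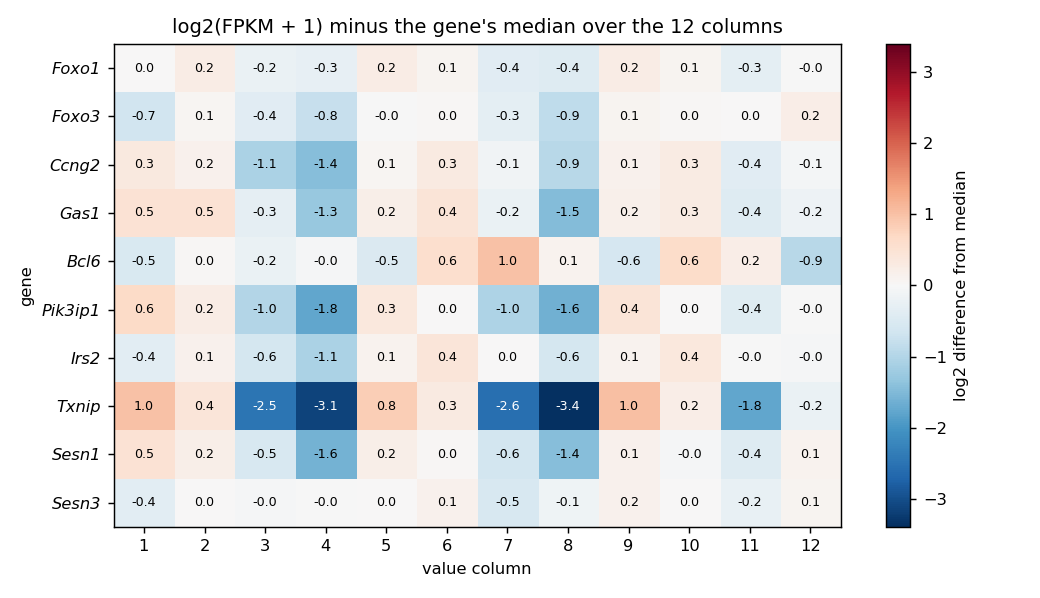
Heat map of log2(FPKM + 1) minus the gene's own median over the 12 columns, for each gene (rows) and unnamed value column (columns); red is above and blue below the median. Columns 4 and 8 are among the lowest 4 for 8 and 9 of the 10 genes, where they are for 35.5% and 60.1% of all symbols tested. Bcl6 is highest in column 7, where Txnip is low.

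Counted over the set, column 4 held 1 of the lowest 4 values for 8 of the 10 genes, and column 8 did so for 9 of 10 and column 3 for 7 of 10. Over all symbols tested, these shares were 35.5% for column 4, 60.1% for column 8 and 18.3% for column 3. Columns 3 and 4 were below the gene's median for all 10, where 40.8% and 46.1% of all symbols were. These counts describe the columns and do not identify them. Column 8 was the deepest and column 4 the next deepest by the ratio of coverage to FPKM, and the part of depth was not tested.

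On the log2(FPKM + 1) scale, 8 of the 10 genes had a range over the columns of at least 1, that is a change of 2 times or more in FPKM + 1. The same held for 20.9% of the 10390 symbols tested, and without column 1 for 8 of 10 genes and 14.6% of all symbols. The median range was 1.85 for the set and 0.70 for all symbols tested. Foxo1 and Sesn3 were below the threshold, at 0.70 and 0.69, near that median over all symbols. For Foxo1, with a median of 2.27 FPKM, this depended on the pseudocount of 1. With a pseudocount of 0.1 its range was 0.996, that of Sesn3 was 0.74, and 31.3% of all symbols reached 1. The ratio of highest to lowest FPKM was 2.07 for Foxo1 and 1.67 for Sesn3. Just above the threshold was Foxo3 at 1.09, which came to 0.95 without column 12. In the 8 genes with 1 transcript line, the deposited intervals of the highest and the lowest column were apart, but so were those of 97.8% of the 7887 symbols with 1 line, so the count is not particular to the set. These intervals have a limit, since 21 of the 144 member values lay outside their own interval, the highest value of Gas1 among them.

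**Figure D3:**
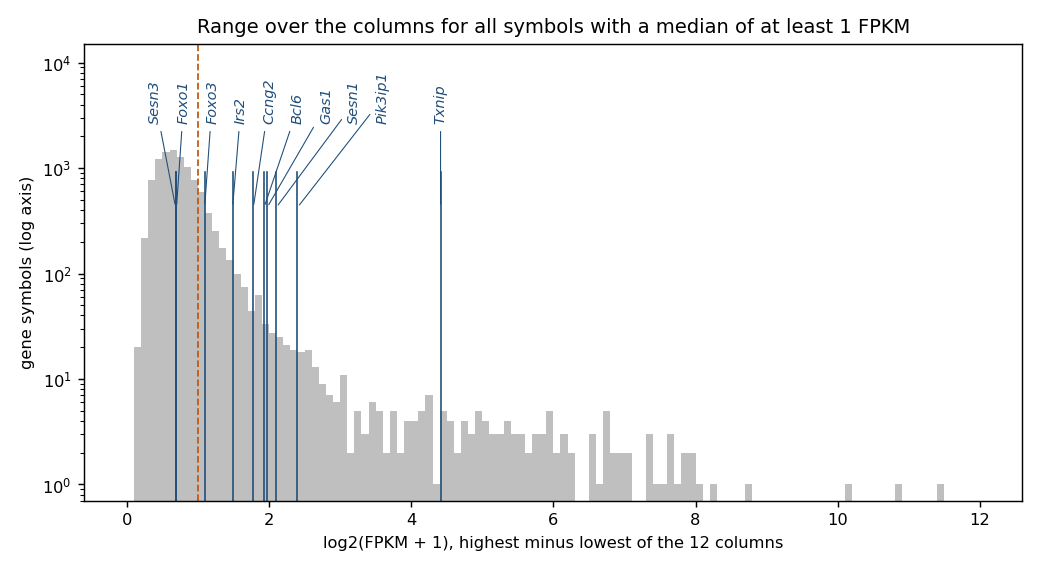
Number of gene symbols (y axis, log scale) by the difference between the highest and lowest of the 12 columns in log2(FPKM + 1) (x axis), for the 10390 symbols tested; blue lines mark the 10 genes and the dashed line the threshold of 1. Txnip lies at 4.41, and Foxo1 and Sesn3 lie near the median of all symbols at 0.70.

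The genes were then compared in pairs by rank over the 12 columns. The columns are not known to be independent samples, and they share 1 annotation and 1 processing, so the coefficients are descriptions. Of 45 pairs, 19 had a Spearman rho of at least 0.7, which is 42.2% against 12.9% of all pairs of symbols tested. The median rho was 0.59 over the pairs of the set and 0.22 over all pairs. Without column 1 the count was 29 of 45 pairs, or 64.4% against 12.7% of all pairs.

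Txnip and Pik3ip1 were the closest pair, with a rho of 0.98 and a Pearson r of 0.98. Leaving out any 1 column kept r between 0.97 and 0.99, and without the 2 columns farthest from the Txnip median it was 0.98. Pik3ip1 and Sesn1 had a rho of 0.94 (r = 0.97), and Txnip and Sesn1 one of 0.92 (r = 0.93). These 3 genes, an inhibitor of PI3K, a restraint on glucose uptake and a restraint on mTORC1, followed nearly 1 order over the columns. They were grouped by these coefficients, and such values were not particular to them. Of all 10389 other symbols tested, 27.7% had a rho of at least 0.7 with Txnip. Xpc and Mn1, outside the set, had a rho of 0.98 and 0.97 with it. Because the Txnip values fall into a low and a high part, the coefficients were also taken within its 7 high columns; the 5 low ones are too few. There the rho of Txnip was 0.93 with Pik3ip1 (r = 0.91) and 0.64 with Sesn1 (r = 0.60). With Foxo1 it was 0.43, with Ccng2 0.21, with Gas1 0.18 and with Foxo3 -0.32. Pik3ip1 alone of the other 9 genes reached a rho of 0.7 with Txnip there. The share of all symbols that did so in these 7 columns was not taken, so the count is not a result about the set.

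Ccng2 and Gas1 were another close pair by rank, with a rho of 0.92 (r = 0.89). They did not stand apart from the other genes, since the r of Gas1 was 0.95 with Sesn1 and 0.91 with Pik3ip1. Without column 1, Ccng2 had a rho of 0.96 with Irs2. Foxo1 followed Txnip with a rho of 0.85 (r = 0.93), with a log2(FPKM + 1) range of its own of 0.70. Foxo3 followed Txnip with a rho of only 0.55 (r = 0.64), but without column 1 the values were 0.75 and 0.87. For Foxo3 and Sesn1 the rho went from 0.52 to 0.79 and r from 0.69 to 0.96 when column 1 was left out. The low coefficients of Foxo3 with these genes thus depended on column 1. Without columns 4 and 8, the 2 farthest from the Foxo3 median, the r with Sesn1 over the other 10 columns was 0.11. Without columns 1, 4 and 8 it was 0.82 over 9 columns (rho = 0.63).

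A negative rho was found only in pairs with Bcl6, in 8 of its 9 pairs over the 12 columns and in 6 of 9 without column 1. Some were close to 0, at -0.014 with Ccng2 (r = 0.013) and -0.084 with Gas1. Scaled to TPM, the rho was 0.021 with Ccng2 and 0.007 with Foxo3. The share of negative pairs over all symbols was not taken, so the count is not a result about Bcl6. The lowest rho of Bcl6 was -0.48 with Sesn1 (r = -0.32). With Irs2 it was 0.32 (r = 0.23). No pair of Bcl6 reached a rho of 0.7 in either direction.

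**Figure D4:**
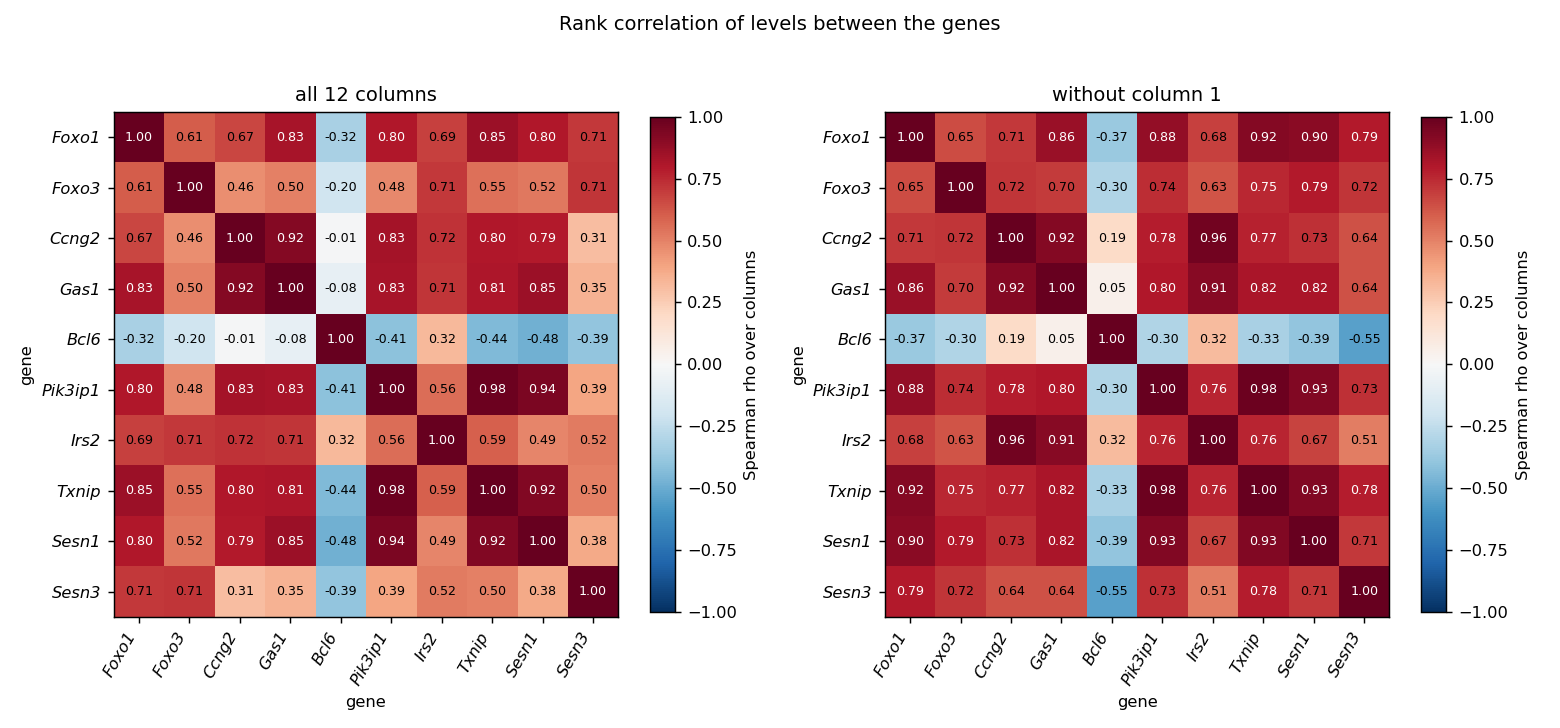
Spearman rho between the levels of each pair of the 10 genes (both axes list the genes), over all 12 columns on the left and without column 1 on the right; red is positive and blue negative. Txnip, Pik3ip1 and Sesn1 have coefficients of 0.92 to 0.98 on the left. The Bcl6 row is negative there in 8 of 9 pairs, though only at -0.014 with Ccng2.

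Both Txnip and Sesn1 had 2 RefSeq transcripts. The Txnip transcripts, of 2801 and 2798 bases, differ by 3 bases in length, so the split of reads between them is uncertain. The longer carried 59.7% to 78.2% of the Txnip FPKM, with a median of 67.5%, and its deposited interval was above that of the shorter in all 12 columns. The 2 transcripts went up and down together over the columns, with a Pearson r of 0.98 and a rho of 0.94.

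The Sesn1 transcripts, of 3182 and 2612 bases, were less alike, with an r of 0.75 and a rho of 0.62. By GENCODE M21 on GRCm38, the longer starts at base 41809935 of chromosome 10, which is 639 bases before the upstream RefSeq start shown above, and the shorter starts at base 41887439, the downstream start. The shorter carried 59.1% of the Sesn1 FPKM in column 1 and 19.3% in column 8. In column 8 it was at 0.917 FPKM, and the longer was at 3.83. In column 12, where their sum was above its median, the longer was at 10.7 FPKM and the shorter at 5.28. The intervals of the longer lay above those of the shorter in 3 columns, and the reverse held in 2. The FOXO core shown above lies at the upstream start, and nothing in these values ties it to the level of either transcript.

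**Figure D5:**
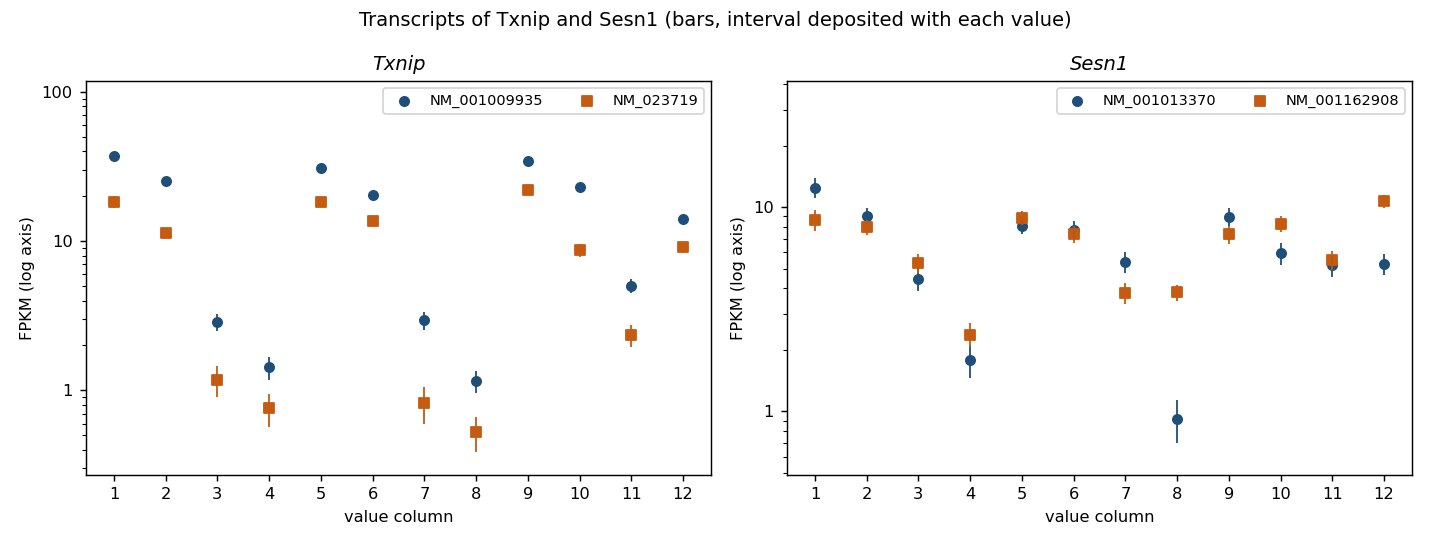
FPKM (y axis, log scale) of the 2 RefSeq transcripts of Txnip (left) and of Sesn1 (right) in each of the 12 unnamed value columns (x axis); points are deposited values and bars the intervals deposited with them. The Txnip transcripts keep their order in all 12 columns, whereas those of Sesn1 change order, with 0.917 against 3.83 FPKM in column 8.

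Genes of the same pathway were described from fixed lists, which were chosen with earlier results of these data known. Of 18 genes for PI3K and AKT signalling above FOXO, 16 had a median of at least 1 FPKM, and 7 of these, Irs2 and Pik3ip1 included, had a range of at least 1, where 20.9% of all symbols tested did. Sgk1, an AKT-related kinase that also phosphorylates FOXO proteins, was the most abundant by median and had the widest range, from 83.7 FPKM in column 9 through 245 at the median to 600 in column 7. Its rho with Txnip was -0.78. Of the 14 genes of this list that are not in the set, 3 had a rho with Txnip of -0.7 or below and 3 one of 0.7 or above, where 6.80% and 27.7% of all symbols did. Sgk3 had the lowest median, 0.365 FPKM.

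Of 20 further textbook FOXO targets, 18 had a median of at least 1 FPKM and 12 of these had a range of at least 1, against 20.9% of all symbols tested. The widest ranges were those of Ddit4, an inhibitor of mTORC1 signalling, from 11.1 to 132 FPKM, and of Trp53inp1, a stress-response gene, from 2.31 to 23.1 FPKM. Cdkn1a, which encodes the CDK inhibitor p21, had the highest median at 115 FPKM, and Klf15 was listed at 0 in all columns. Over the 18 genes, 7 had a rho of at least 0.7 with Txnip and none had one of -0.7 or below, where 27.7% and 6.80% of all 10389 other symbols tested did. Among the 7, named after their values were seen, were Cdkn1b, which encodes the CDK inhibitor p27, and Cat, which encodes catalase, each with a rho of 0.96. Cdkn1a had a rho of -0.45. A rho of at least 0.7 with Txnip was not particular to these targets. It was also found for 4 of the 9 fibroblast markers tested, among them Pdgfrb at 0.96. The liver targets G6pc and Igfbp1 were listed at 0 in all columns, and Pck1 did not exceed 0.070 FPKM.

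Among 12 relatives of the genes, 10 had a median of at least 1 FPKM and 4 a range of at least 1, against 20.9% of all symbols. Sesn2 had the widest range of these, followed by Arrdc3, an arrestin-like relative of Txnip, which ran from 6.40 FPKM in column 4 to 23.1 in column 10 with a rho of -0.06 with Txnip. The arrestin-like relatives Arrdc1 and Arrdc2 had a rho of 0.63 and 0.89 with Txnip. Gas7 was the most abundant, with a median of 72.0 FPKM, and Arrdc4 was listed at 0 throughout. Over the 10 genes, 3 had a rho of at least 0.7 with Txnip, a share close to the 27.7% of all symbols. Irs1 is on this list and on that of PI3K and AKT signalling, and was counted in both.

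All 9 mitogen-induced immediate early genes had a median of at least 1 FPKM and a range of at least 1, where 20.9% of all symbols tested did. Fosb had the lowest median, 2.50 FPKM. Egr1 had the highest, 49.3 FPKM, and ran from 5.28 FPKM in column 1 to 823 in column 10. Fos ran from 0.202 FPKM in column 1 to 145 in column 2. The coefficients of these 2 with Txnip were weak, with a rho of -0.29 for Egr1 and -0.25 for Fos. Over the 9 genes the rho with Txnip ran from -0.49 for Atf3 to 0.62 for Dusp1. Columns 2, 6 and 10, in which Txnip was between 31.9 and 36.6 FPKM, held the 3 highest values of both Egr1 and Fos. None of the 9 genes had a rho with Txnip of 0.7 or above or of -0.7 or below, where 27.7% and 6.80% of all symbols did.

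For each gene, the 3 other symbols with a median of at least 5 FPKM and the highest Pearson r over the 12 columns were listed. The nearest to Ccng2 was Gadd45a, a growth arrest and DNA damage gene, with an r of 0.96, followed by Hbp1 at 0.95 and Fbxo32, a ubiquitin ligase gene, at 0.94. The nearest to Irs2 were Rnf103 at 0.92, Capns2 at 0.91 and Bcl2l11, which encodes the cell death protein BIM, at 0.91. Of the 30 nearest symbols, 3 (Gadd45a, Fbxo32 and Bcl2l11) are on the list of other FOXO targets and 27 are not. The share of that list among all candidates was not taken, so the count is not a result about the set. The nearest to Txnip were 2610008E11Rik, Xpc and Mn1, each at 0.99, and the nearest to Gas1 was Hexim1, at 0.99. Foxo3 had lower values than these, with Zfhx3 at 0.93 and Nfib at 0.92. By rank these were less close, with a rho of 0.74 for Zfhx3 and 0.79 for Nfib. For Foxo1 the nearest was Zfp507 at 0.97, for Pik3ip1 9930012K11Rik at 0.99 and for Sesn1 Mat2b at 0.98. For Sesn3 it was Ssh1 at 0.93 and for Bcl6 Rhob at 0.94. Each name is among the highest of 7717 candidates over 12 columns and describes these columns only.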

How the data were processed

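Polyadenylated RNA of 9 samples was sequenced from Illumina TruSeq libraries, per the labels' protocols. Bowtie, TopHat, Cufflinks and the mm9 build are named, without versions, per the submitters' processing notes. The authors deposited 1 table without a header line, whose cells hold FPKM, its interval bounds, coverage and transcript length; the field order was read from the layout of the cells. All 12 value columns matched no sample and were used unnamed, so no planned or other comparison of groups, p-value, mean or SD is given. The confidence level of the deposited intervals is not given in the sources used here, and 19.0% of 141964 values above 1 FPKM lay outside their own interval. Total reads per column are unknown; coverage over FPKM gave relative depth only.

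FPKM was summed by symbol with Python 3.11.15, numpy 2.4.6 and pandas 2.3.3. Symbols with a median of at least 1 FPKM were tested for a range of at least 1 in log2(FPKM + 1), and Pearson and Spearman coefficients were taken over columns. The range and correlation steps were tested on simulated data with the same noise for every symbol and no differences in depth between columns. This checks the code and not the calls in the deposited columns. All 10 genes are named; of each list, the genes with the lowest and highest median and the 2 widest ranges; and for each gene, up to 3 nearest symbols. The genes and lists were chosen with earlier results of these data known. Promoter windows came from RefSeq on GRCm38.p6, matched by symbol for 10 of 10 genes.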

Additional observations from a re-analysis of the deposited data

How the results depend on the processing

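No paired analysis was possible because the value columns carry no sample or replicate number, and for the same reason no labelled replicate was left out. The median of the 10 genes' median levels was 13.6 FPKM; scaled to TPM it was 30.8, by construction of that unit. With only the highest transcript of each gene it was 11.3, and with only complete matches to the reference the levels and the 2 genes with more than 1 transcript were as before. The count of genes with a range of at least 1 was 8 with a pseudocount of 0.1, with no minimum median, with a minimum median of 5 FPKM and with upper quartile scaling, and 9 with TPM, where Sesn3 came to 1.04. The share over all symbols, 20.9%, was then 31.3%, 10.5%, 19.9% and 16.5%, and 25.9% with TPM. Leaving out each column in turn gave 7 to 8 genes and 14.6% to 20.7% of all symbols, the 7 genes without column 12, which took Foxo3 to 0.95. TPM moved columns against each other by up to 0.51 on the log2 scale and upper quartile scaling by up to 0.30. Pairs with a rho of at least 0.7 numbered 19, and 19 to 20 with the other pseudocount and scalings. Leaving out each column in turn gave 15 to 29 pairs; the 29 were without column 1, and the cause was not tested. Giving the shares over all pairs without column 1 was chosen after seeing the data. Of the 19 pairs, 13 stayed at 0.7 or above under all 15 alternatives. Except without column 1, the share over all pairs was not taken under these alternatives. The counts under them are therefore not a result about the set. The rho of Txnip and Pik3ip1 was 0.96 to 0.98 throughout. What depth limits was not tested, since total reads per column are unknown.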
